A study of Homo sapiens with 6 samples.

Results

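The proteasome is the protease that breaks down proteins tagged with ubiquitin. Its subunits, assembly chaperones and activators are encoded by genes whose symbols begin with PSMA, PSMB, PSMC, PSMD, PSME, PSMF or PSMG. Members were all protein-coding genes of GENCODE release 44 whose symbol has such a start followed by a digit. This gave 50 genes, all 50 of which were present among the 58302 Ensembl genes of the count data. The symbol rule itself uses no measured value, but it was chosen with earlier results of these data known. By role they comprised 8 genes of the core alpha ring, 7 of the core beta ring, 4 inducible or tissue-restricted catalytic subunits, 6 cap ATPases, 11 further cap subunits, 7 assembly chaperones and 5 activators or inhibitors. The remaining 2, PSMC3IP and PSME3IP1, carry such a symbol because their products bind a proteasome protein, and are not subunits.

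RNA was sequenced from cells labelled MDA-MB231, the human breast cancer line MDA-MB-231, which the study classes as mesenchymal and basal-like. There were 3 libraries of cells stably expressing a control shRNA and 3 of cells stably expressing Smyca shRNA #1, which targets the lncRNA Smyca, whose gene is annotated as MIR23AHG. The study describes them as biological repeats. A single shRNA was sequenced, so its effects on other transcripts cannot be told apart from those of the loss of Smyca. All values below are from total RNA of bulk cultures, in which a smaller number of cells with a transcript and less transcript per cell cannot be told apart.

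The 26S proteasome consists of a barrel-shaped 20S core and a 19S cap. In the core, outer rings of alpha subunits (PSMA) gate the entry and inner rings of beta subunits (PSMB) hold the proteolytic sites. In the cap, a ring of ATPases (PSMC) unfolds the substrate, and the non-ATPase subunits (PSMD) bind and remove ubiquitin. Interferons induce alternative catalytic subunits, which replace their constitutive counterparts in newly built cores and form the immunoproteasome. The transcription factor NFE2L1 raises the transcription of proteasome genes as a group when proteasome activity falls, through antioxidant response elements in their promoters.

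Promoter letters are shown as background, since NFE2L1 acts on proteasome genes as a group through antioxidant response elements. RefSeq held a window from 250 bases before to 50 bases after the annotated start for 44 of the 50 members (GRCh38.p14). The windows missing were those of PSMA7, PSMB1, PSMB6, PSMB7, PSMD4 and PSMG3. On both strands, the core of the antioxidant response element, TGACNNNGC, occurred in 13 of the 44 member promoters (29.55%) and in 13.56% of the 27305 promoters of the same length. The CCAAT box, CCAAT, occurred in 21 (47.73%) against 35.7% of all. The interferon regulatory factor element, GAAA followed by any 2 bases and another GAAA, occurred in 6 (13.64%) against 3.65% of all. Matches of 2 different motifs overlapped in 0 member promoters, and 4 members held both the antioxidant element core and a CCAAT box. A match is a description of the letters and not a bound site. The first group below shows some of the antioxidant element cores and the second some of the interferon regulatory factor elements. Matches are in capitals with 10 bases on each side, written 5′ to 3′ on the strand of the gene.
PSMD3 (chr17:39980760-39980788, plus strand): tcccctttgtTGACTCGGCcatcggcctg
PSMB3 (chr17:38752627-38752655, plus strand): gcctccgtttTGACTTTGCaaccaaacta
PSMG1 (chr21:39183616-39183644, minus strand): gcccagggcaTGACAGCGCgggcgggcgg
PSMD12 (chr17:67366724-67366752, minus strand): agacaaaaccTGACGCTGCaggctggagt
PSMD5 (chr9:120843038-120843066, minus strand): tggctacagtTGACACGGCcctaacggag
PSMB10 (chr16:67936852-67936881, minus strand): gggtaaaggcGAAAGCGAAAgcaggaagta
PSME2 (chr14:24146619-24146648, minus strand): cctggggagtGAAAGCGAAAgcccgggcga
PSMG4 (chr6:3258904-3258933, plus strand): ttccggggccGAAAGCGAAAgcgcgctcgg

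Fold changes were set beside the presence of a match. All fold changes are given as log2 of control over Smyca knockdown, so that a negative value means a lower level in the control libraries. The 13 tested members with an antioxidant element core had a median log2 fold change of -0.17, with 10 of 13 below 0. Those tested without a match in their window had a median of -0.21, with 23 of 29 below 0. For the interferon regulatory factor element, the medians were -0.21 over 6 members with a match and -0.18 over 36 without. Below 0 were 5 of 6 and 28 of 36. For the CCAAT box the medians were -0.20 over 20 members with a match, 18 of them below 0, and -0.19 over 22 without, 15 of them below 0.

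Smyca was checked first. MIR23AHG had 25, 19.5 and 22 normalized CPM (CPM after TMM scaling of the library size) in the control and 10.5, 6.97 and 5.61 in the knockdown libraries, so that the groups did not overlap. Its log2 fold change was 1.53 with an SE of 0.26 and a Benjamini-Hochberg adjusted p of 0.111 in edgeR's quasi-likelihood test (0.000297 unadjusted). Without control replicate 3 the adjusted p was 0.0152, and over all alternatives it ranged from 3.71e-05 in DESeq2 to 0.44.

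Total counts lay between 14999307 and 16501085 per library. The biological coefficient of variation estimated over both groups was 25.19%. Several markers went against the label of the cells. Of 5 genes listed as low in MDA-MB-231, ESR1 and PGR had at most 3 counts, but KRT19 had 850 to 1960, CDH1 71.5 to 300 and EPCAM 236 to 336 normalized CPM. Of 6 genes listed for intestinal epithelium, 5 reached 10 counts in at least 1 library, with VIL1 at 220 to 501 and HNF4A at 65.4 to 194 normalized CPM. The others were low, with CDX2 at 6.08 to 11.1, CDH17 at 0.704 to 4.25 and LGALS4 at 0.33 to 1.34 normalized CPM, and KRT20 had at most 6 counts. LGALS4 was higher in the control without overlap, with a log2 fold change of 1.14. The summed level of that list, made up mostly of VIL1 and HNF4A, was 294 to 542 in the control and 627 to 708 in the knockdown libraries, without overlap. The 5 genes listed as high in the line summed to 252 to 525 in the control and 150 to 250 in the knockdown libraries. Of 4 genes each, 2 of the fibroblast, 1 of the leukocyte and 0 of the hepatocyte list reached 10 counts, and PTPRC, APOB and TTR were at 0 in all 6 libraries. The part of these differences in the values of the proteasome genes was not tested.

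Proteasome genes were compared between the groups over the 15075 genes that passed the filter on low counts, 48 of which were members. A gene was called when its ratio of control to knockdown reached 1.5 or fell to 0.66, with an adjusted p below 0.05. In edgeR's test 0 of the 48 members were called, with 4 genes (0.0265%) called among all those tested. MIR23AHG, with an adjusted p of 0.111 in that test, was not called either. By the same criteria the study, which used DESeq, reported far more genes than these 4. With so few genes called, 0 of 48 does not set the members apart from other genes. At an unadjusted p under 0.05, 6 members were lower in the control, or 12.5% against 8.74% of all genes, and 0 were higher in the control, against 10.4% of all genes. DESeq2 called 1 member, PSME3, among 850 of the 15075 genes. It counted 8 members lower and 0 higher at an unadjusted p under 0.05, against 9.47% and 10.1% of all genes. The 6 lower members in edgeR's test were PSME3, PSMG1, PSMD11, PSMD3, PSMA7 and PSMB5. Leaving out knockdown replicate 2 or control replicate 1 left 1 such member each, with 4.75% and 5.02% of all genes. Leaving out control replicate 3 or knockdown replicate 1 gave 10 each, with 13.9% and 7.32% of all genes. Without control replicate 2 or knockdown replicate 3 there were 3 and 2, with 5.76% and 8.39% of all genes. With total-count scaling there were 2 of 48, a smaller share than the 5.86% of all genes, and 1 was higher, against 13.0% of all genes.

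The members' values lay mostly on the side of higher levels in the knockdown libraries, although 0 of them passed the adjusted test. The median log2 fold change of the 48 members was -0.19, beside 0.036 over all genes tested. A log2 fold change below 0 was found for 37 of the 48 (77.1%), and for 46.6% of all genes. All control values lay below all knockdown values for 11 members (22.9%), against 12.5% of all genes. That count was 26 without knockdown replicate 1, 20 without control replicate 2 and 17 without control replicate 3 or knockdown replicate 3, with 17.3%, 15.3%, 23.5% and 19.1% of all genes, and 7 with total-count scaling, with 8.46%. The reverse held for 1 member, PSMC6, against 12.4% of all genes. Summed over the members, the normalized CPM were 4940, 5310 and 5410 in the control and 5540, 6600 and 6390 in the knockdown libraries, a ratio of the means of 1.18 for knockdown over control. The same ratio of the summed normalized CPM of all genes tested was 1.05.

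**Figure D1:**
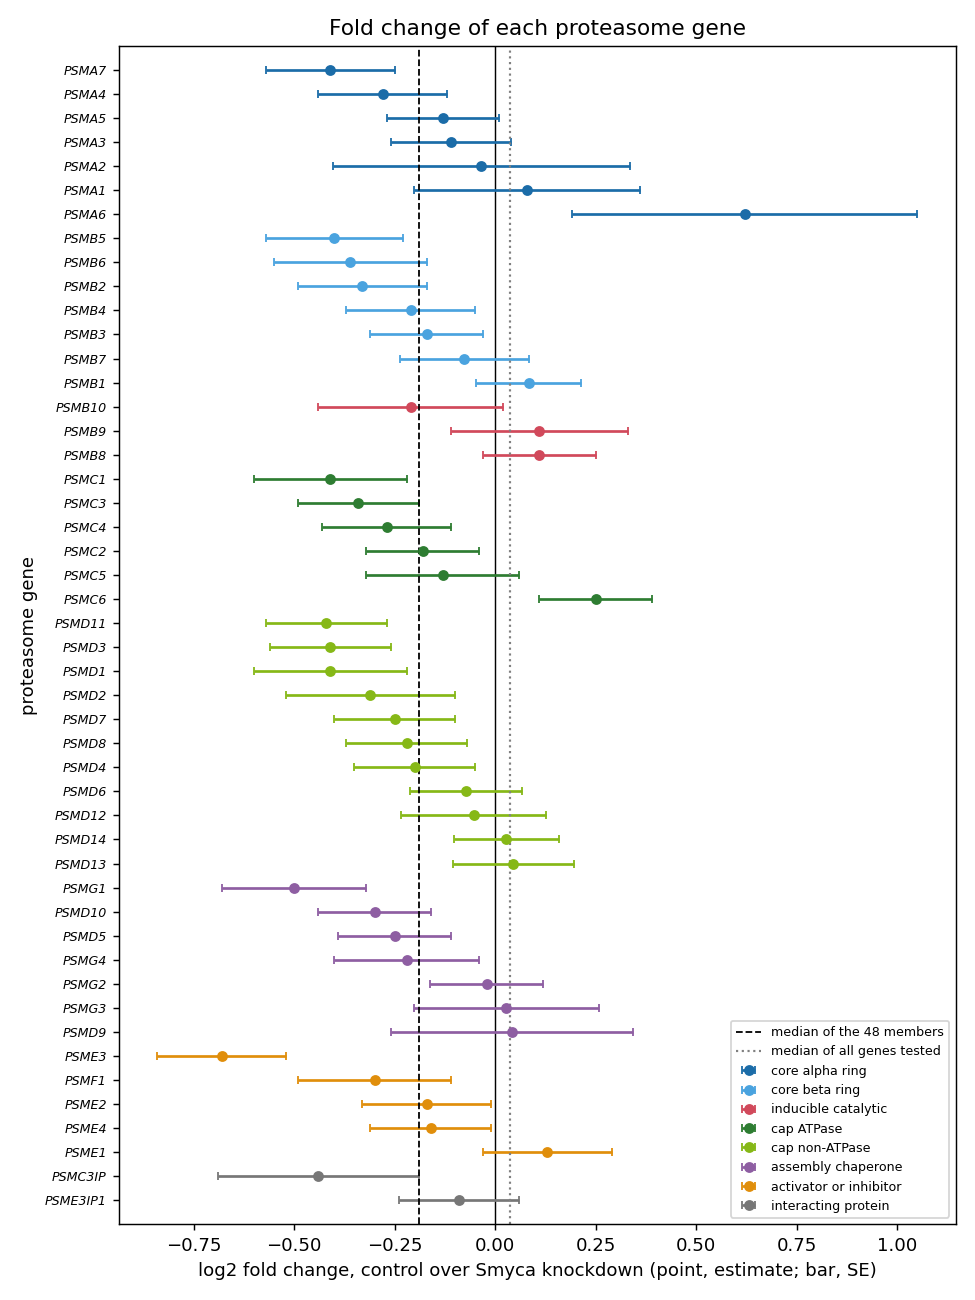
Log2 fold change of control over Smyca knockdown (x axis, point) with its SE (bar) for the 48 proteasome genes tested (y axis), grouped and coloured by role, with dashed and dotted lines at the medians of the members and of all genes tested. Of the 48 points, 37 lie left of 0, PSME3 lies farthest left at -0.68, and PSMA6 lies farthest right at 0.62 with the widest bar.

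The difference was not even across libraries. Control replicate 1 held the lowest value of 24 of the 48 members, and knockdown replicate 2 the highest of 25. The median deviation of the members from their own mean, on the scale of log2(normalized CPM + 1), was -0.19 in control replicate 1, -0.039 in control 2 and -0.028 in control 3. In the knockdown libraries it was -0.018 in replicate 1, 0.22 in replicate 2 and 0.12 in replicate 3. Knockdown replicate 1 thus stood close to control replicates 2 and 3, while control 1 lay lowest, and knockdown 2 and then knockdown 3 highest. Without control replicate 1, the median log2 fold change was -0.17, and without knockdown replicate 2 it was -0.12. The members varied less between replicates than all genes tested. Their median coefficient of variation was 10.2% among controls and 12.7% among knockdown libraries, beside 18.8% and 16.3% over all genes. Genes of a similar level were not compared, so this cannot be told apart from an effect of the members' level.

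**Figure D2:**
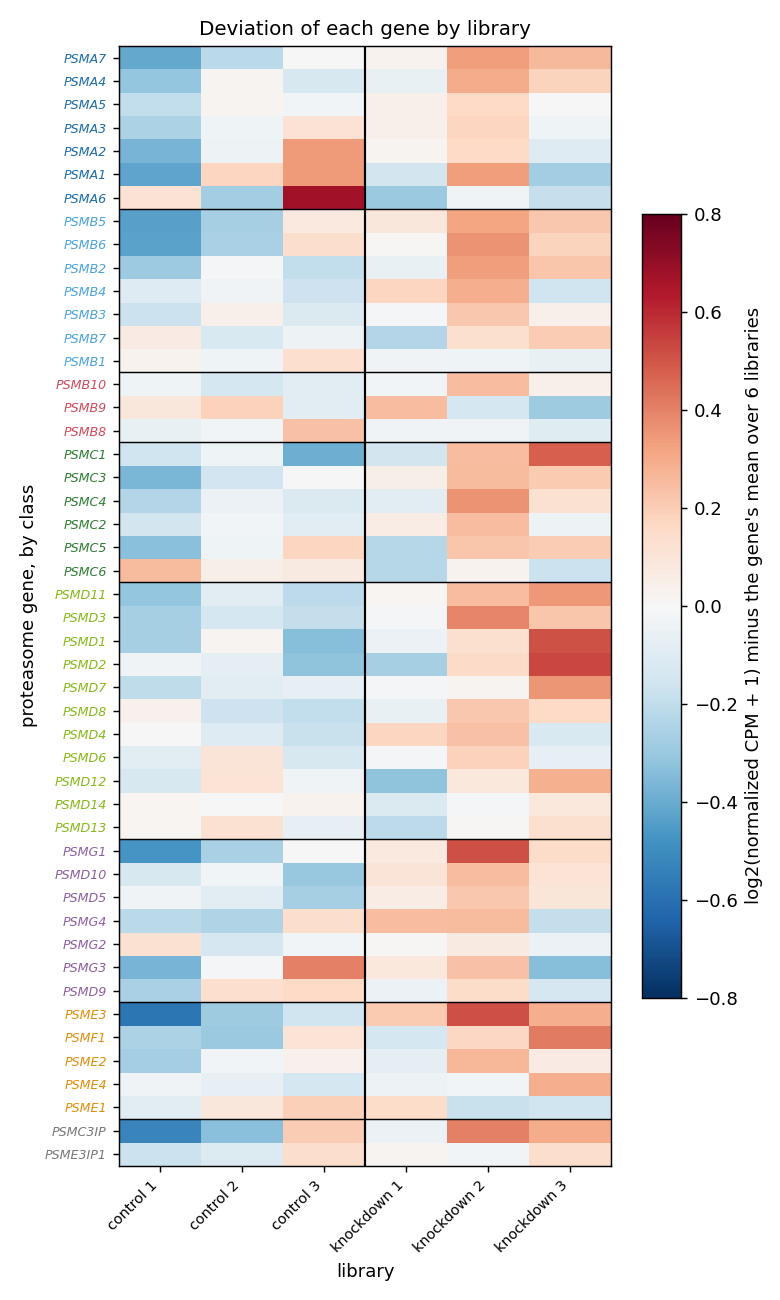
Deviation of log2(normalized CPM + 1) from each gene's mean over the 6 libraries (colour; red above, blue below the mean) for the 48 proteasome genes tested (rows, label colour by role) in the 3 control and 3 knockdown libraries (columns). The control 1 column is mostly blue, with a median of -0.19, the knockdown 2 column mostly red, with a median of 0.22, and the knockdown 1 column is pale.

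The core alpha ring, whose subunits PSMA1 to PSMA7 form the gate of the barrel, had a median log2 fold change of -0.11 over 7 tested genes, with 5 below 0 and 0 called. The summed level of the ring was 681, 801 and 860 normalized CPM in the control and 870, 1060 and 974 in the knockdown libraries. PSMA7, shown after its values were seen, had 358, 409 and 477 normalized CPM in the control and 484, 601 and 569 in the knockdown libraries, so the groups did not overlap. The log2 fold change of -0.41 (SE 0.16) had an adjusted p of 0.225 in edgeR's test. PSMA4, PSMA5 and PSMA3 followed with values from -0.28 to -0.11. PSMA8 takes the place of PSMA7 in the proteasome of germ cells of the testis. It had 0 counts in all 6 libraries, and a floor of 3 counts per library allows a level between 0.182 and 0.2 CPM.

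PSMA1, PSMA2 and PSMA6 stood far below the other alpha genes, although the ring needs all of its subunits. PSMA6 had 1.85, 1.17 and 3.20 normalized CPM in the control and 1.14, 1.58 and 1.32 in the knockdown libraries. Its log2 fold change of 0.62, the largest above 0 among the members, had an SE of 0.43 and rested on 18 to 50 counts, and the groups overlapped. It was 0.15 without control replicate 3, and 1.13 with the reads that stand behind the FPKM column of control replicate 2 in place of its counts. Of the MANE transcript of PSMA6, 81.43% of the bases lie under exons of another gene of the count data on the same strand. The same holds for 100% of the bases of PSMA2 and 67.03% of PSMA1. A read under exons of 2 genes can go uncounted, and the counting mode is not given in the sources used here. The overlapping genes themselves held at most 3 counts in any library for these 3 members. The levels of PSMA1, PSMA2 and PSMA6 are therefore uncertain, and the part of the overlap in them was not tested. Outside the alpha ring, PSMB10 shares 56.09% and PSMD9 28.77% of its bases in the same way. Without these 5 genes, 35 of 43 members lay below 0, with a median of -0.21.

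**Figure D3:**
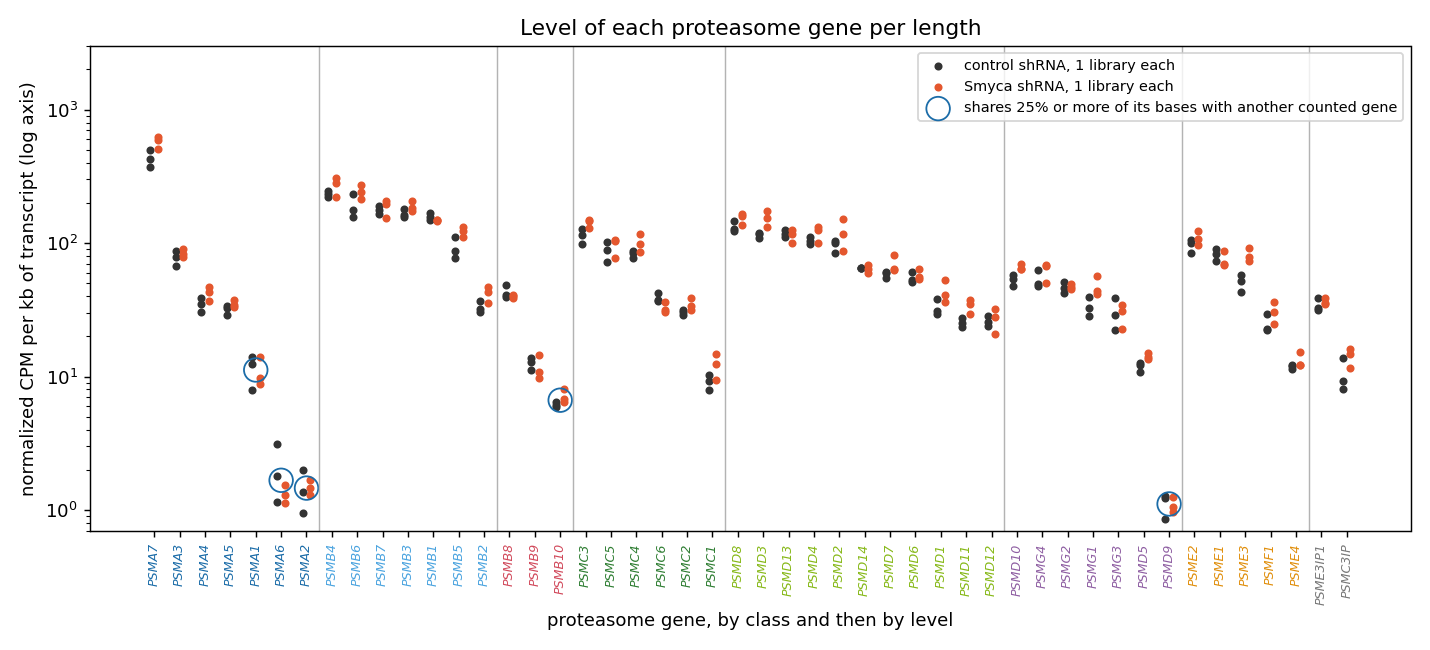
Normalized CPM per kb of MANE transcript (y axis, log scale) of the 48 proteasome genes tested (x axis, grouped and coloured by role, ordered by level), with 1 point for each of the 3 control (dark) and 3 knockdown (orange) libraries. Circles mark the 5 genes that share 25% or more of their bases with same-strand exons of another counted gene; PSMA7 is highest with a mean of 502, and PSMA2, PSMA6 and PSMD9 lie near the bottom.

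Per length, as normalized CPM per kb of the MANE transcript, the 4 alpha genes that share no exons ranged from a mean over 6 libraries of 33.4 for PSMA5 to 502 for PSMA7. The beta genes ranged from 37.4 for PSMB2 to 252 for PSMB4, the cap ATPases from 10.7 for PSMC1 to 127 for PSMC3, and the other cap genes from 26.4 for PSMD12 to 143 for PSMD8. Equal numbers of these subunits enter each particle, but among genes that share no exons their transcripts differed by up to 15-fold within a ring. These levels depend on the length used. With the lengths behind the deposited FPKM values, the span of the alpha genes that share no exons was 6.8-fold and the top cap gene was PSMD2.

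The core beta ring had a median log2 fold change of -0.21 over 7 genes, with 6 below 0 and 0 called. Its summed level was 1000, 1060 and 1100 normalized CPM in the control and 1120, 1330 and 1200 in the knockdown libraries, without overlap. PSMB5, which carries the chymotrypsin-like activity and is the main target of bortezomib, had 81.2, 91.2 and 116 normalized CPM in the control and 117, 137 and 128 in the knockdown libraries. The highest control and the lowest knockdown value of PSMB5 nearly met. The log2 fold change was -0.40 (SE 0.17) with an adjusted p of 0.242 in edgeR's test. Without control replicate 3 the adjusted p was 0.0477, with a log2 fold change of -0.57, and over the alternatives it ranged up to 0.563.

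PSMB6, the caspase-like subunit, had 130, 146 and 193 normalized CPM in the control and 176, 225 and 198 in the knockdown libraries, with overlap through control 3. Its log2 fold change was -0.36 (SE 0.19, adjusted p 0.334 in edgeR's test). PSMB7, the trypsin-like subunit, had 186, 163 and 173 in the control and 151, 194 and 205 in the knockdown libraries. The log2 fold change was -0.077 (SE 0.16), and the sign turned without knockdown replicate 3. Among the subunits without a proteolytic site, PSMB2, PSMB4 and PSMB3 had values of -0.33, -0.21 and -0.17, and PSMB1 had 0.083.

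The inducible subunits PSMB8, PSMB9 and PSMB10 replace PSMB5, PSMB6 and PSMB7 in the immunoproteasome. PSMB8 had 44.6, 45.7 and 54.8 normalized CPM in the control and 45.5, 45.6 and 43.3 in the knockdown libraries, a log2 fold change of 0.11 (SE 0.14, adjusted p 0.702 in edgeR's test). The groups overlapped, with only control 3 standing above the rest, and without control 3 the log2 fold change was 0.0055. PSMB9 had 13.1, 14 and 11.4 in the control and 14.7, 11 and 9.84 in the knockdown libraries. Its log2 fold change was 0.11 (SE 0.22), and its sign turned without knockdown replicate 3.

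PSMB10 had 6.29, 5.78 and 6.02 normalized CPM in the control and 6.35, 7.86 and 6.67 in the knockdown libraries, from 94 to 124 counts. These groups were narrowly apart. PSMB10 had a log2 fold change of -0.21 (SE 0.23, adjusted p 0.656 in edgeR's test), and its level is among those made uncertain by shared exons. The log2 fold change was -0.28 without knockdown replicate 1 and -0.11 without knockdown replicate 2. PSMB11, the catalytic subunit of the thymus, had 1 count in control 3 and 0 in the other 5 libraries, and was not tested. It lies 6981 bases from PSMB5 on chromosome 14.

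Within each library, the level per length of PSMB8 was 51.0%, 46.5% and 43.8% of that of PSMB5 in the control and 36.2%, 30.9% and 31.5% in the knockdown libraries. The means were 47.1% ± 3.64 and 32.8% ± 2.92 (SD, n = 3 each), and the groups did not overlap. A ratio within a library does not depend on the scaling between libraries. The exact two-sided permutation test gave p = 0.1, the smallest that 3 against 3 allow, and 0.3 after adjustment over the 3 pairs. The ratio of PSMB9 to PSMB6 was 6.93% ± 1.86 and 4.93% ± 1.62 (exact permutation p = 0.2, n = 3 each), with overlap. That of PSMB10 to PSMB7 was 3.5% ± 0.0847 and 3.86% ± 0.516 (exact permutation p = 0.4, n = 3 each). With 3 libraries a group no pair could pass 0.05, and the ratios were compared after the values of the single genes had been seen.

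**Figure D4:**
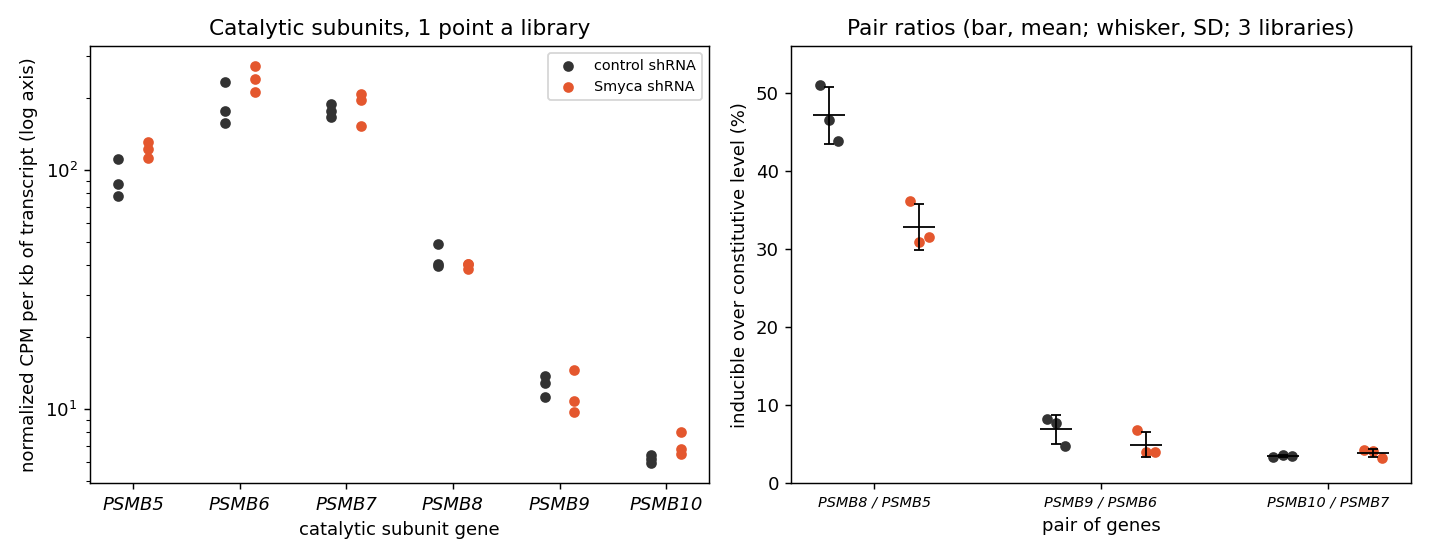
Left, normalized CPM per kb of transcript (log axis) of the 6 catalytic subunit genes in each control (dark) and knockdown (orange) library; right, level of each inducible gene as a percentage of its constitutive counterpart in the same library, with the mean (bar) and SD (whisker) of 3 libraries. PSMB8 over PSMB5 lies at 43.8% or more in the control and at 36.2% or less in the knockdown libraries, while the other pairs overlap.

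Of 7 genes for interferon response and peptide loading, which surround the immunoproteasome, 5 lay above and 2 below 0. At an unadjusted p under 0.05, 0 of the 7 passed in edgeR's test and 0 in DESeq2. Of all genes, 8.74% were lower and 10.4% higher in the control in edgeR's test, and 9.47% and 10.1% in DESeq2. With only 7 genes, a count of 0 is near those shares. IRF1, which binds interferon-responsive promoters, had 16.5, 13.8 and 20.6 normalized CPM in the control and 17.8, 12 and 18.1 in the knockdown libraries, with a log2 fold change of 0.089 (SE 0.24) whose sign turned without control replicate 3 and without knockdown replicate 2. TAP1, a peptide transporter, had 39.2, 36.8 and 26.1 in the control and 32.6, 35.3 and 35.1 in the knockdown libraries, with a log2 fold change of -0.014 (SE 0.18), whose sign turned with total-count scaling, with at least 10 counts in every library, without control replicate 3 and without knockdown replicate 2. The values of both genes overlapped between the groups.

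The cap ATPases PSMC1 to PSMC6 had a median log2 fold change of -0.23, with 5 of 6 below 0 and 0 called. PSMC1 had 41.0, 44.7 and 34.8 normalized CPM in the control and 41.4, 54.5 and 64.4 in the knockdown libraries, with overlap, and a log2 fold change of -0.41 (SE 0.19, adjusted p 0.286 in edgeR's test). Exons of NRDE2 on the other strand lie over 83.23% of its bases, and the strand setting of the counting is not given in the sources used here. PSMC3 was the ATPase whose control values all lay below its knockdown values. PSMC6 went the other way, with 91.9, 79.6 and 80.7 in the control and 65.5, 78.3 and 68.2 in the knockdown libraries. The log2 fold change was 0.25 (SE 0.14, adjusted p 0.372 in edgeR's test) and stayed between 0.18 and 0.32 under all 13 alternative settings. The partners of this ring thus had values of either sign.

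Among the 11 non-ATPase cap subunits the median was -0.22, with 9 below 0 and 0 called. PSMD11, a scaffold subunit of the lid, had 90.9, 106 and 97.5 normalized CPM in the control and 114, 134 and 144 in the knockdown libraries, without overlap. Its log2 fold change was -0.42 (SE 0.15) with an adjusted p of 0.189 in edgeR's test. PSMD3, whose promoter element is shown above, had -0.41 (SE 0.15), and PSMD1, which with PSMD2 forms the base for ubiquitin receptors, also had -0.41 (SE 0.19). PSMD2, PSMD7, PSMD8 and PSMD4 ranged from -0.31 to -0.20. PSMD14, the deubiquitinase that removes ubiquitin chains, had 0.028, and PSMD6, PSMD12 and PSMD13 lay between -0.073 and 0.045.

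The assembly chaperones had a median of -0.22, with 5 of 7 below 0. PSMG1, which helps to build the alpha ring, had 49.6, 57.6 and 69.0 normalized CPM in the control and 72.9, 99.1 and 76.6 in the knockdown libraries, without overlap. The log2 fold change was -0.50 (SE 0.18) with an adjusted p of 0.198 in edgeR's test, and control 1 and knockdown 2 were again the extremes. Its partner PSMG2 had -0.021 (SE 0.14). PSMG3 and PSMG4, the other pair of chaperones for this ring, had 0.028 and -0.22. Of the chaperones for the ATPase ring, PSMD10 had -0.30, PSMD5 -0.25 and PSMD9 0.042, the last from 38 to 55 counts.

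The activators held the largest difference of the 48. PSME3 encodes a nuclear ring-shaped activator of the core that works without ubiquitin, and lies on chromosome 17 from 42824385 to 42843760 on the plus strand of GRCh38. It had 136, 167 and 182 normalized CPM in the control and 235, 291 and 249 in the knockdown libraries. All knockdown values of PSME3 lay above all control values, and the level in the knockdown libraries was 1.6-fold that of the control. The log2 fold change was -0.68 (SE 0.16) with an unadjusted p of 0.00297 and an adjusted p of 0.122 in edgeR's test, so PSME3 was not called. The adjusted p was 0.0115 in DESeq2, 0.0252 with all genes of at least 1 count and 0.0269 without control replicate 3, and it ranged from 0.0115 to 0.44 over the alternatives.

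The activator built from PSME1 and PSME2 is induced by interferon. PSME1 had 70.9, 80.5 and 86.4 normalized CPM in the control and 83.7, 66.6 and 67.7 in the knockdown libraries, with overlap. Its log2 fold change was 0.13 (SE 0.16), with 0.055 without control replicate 3 and 0.23 without knockdown replicate 1. PSME2 had -0.17 (SE 0.16), although the genes lie 4394 bases apart on chromosome 14. PSME4, a large nuclear activator, had -0.16, and PSMF1, an inhibitor of the core in vitro, had -0.30. Of the genes whose products only bind a proteasome protein, PSMC3IP, which acts in meiotic recombination, had 10.9, 12.6 and 18.7 in the control and 15.6, 21.7 and 20.1 in the knockdown libraries. Its log2 fold change was -0.44 (SE 0.25), with overlap, and exons of MLX on the other strand lie over 57.2% of its bases. It was -0.71 without control replicate 3 and -0.29 without control replicate 1, and -0.21 when those FPKM reads replaced the counts of control replicate 2. PSME3IP1, which binds PSME3, had -0.090 (SE 0.15).

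Genes that work with the proteasome but lie outside the symbol rule gave mixed values. Of 25 such genes, all tested, 18 lay below 0 with a median of -0.18, and 0 had an adjusted p under 0.05 in edgeR's test and 4 in DESeq2, against 0.0265% and 6.49% of all genes. At an unadjusted p under 0.05 in edgeR's test, 6 of the 25 were lower and 2 higher in the control, against 8.74% and 10.4% of all genes. NFE2L1, the activator of proteasome genes, had 250, 214 and 199 normalized CPM in the control and 260, 233 and 304 in the knockdown libraries, with overlap (log2 fold change -0.27, SE 0.16). POMP, which guides the maturation of the core, had 85.7, 107 and 88.6 in the control and 107, 133 and 114 in the knockdown libraries. Its control and knockdown values met at 107, and the log2 fold change was -0.33 (SE 0.16, adjusted p 0.296 in edgeR's test). The cap subunits ADRM1 and SEM1 had -0.23 (SE 0.18) and -0.21 (SE 0.20). Without knockdown replicate 2 they had -0.031 and -0.076. At the other end, ADRM1 had -0.34 without knockdown replicate 1 and SEM1 -0.38 without knockdown replicate 3. ADRM1 had 90.2, 91.5 and 88.0 in the control and 89.4, 132 and 93.7 in the knockdown libraries, so that only knockdown 2 stood apart. SEM1 had 61.5, 70.4 and 86.1 in the control and 87.6, 100 and 65.0 in the knockdown libraries, with overlap.

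The following 4 partner genes were chosen after their values were seen. UBB, a ubiquitin precursor, had 254, 236 and 263 normalized CPM in the control and 405, 479 and 421 in the knockdown libraries, without overlap. For UBB the log2 fold change was -0.79 (SE 0.14, adjusted p 0.111 in edgeR's test), and its count is uncertain, since it codes for repeats of the ubiquitin unit and reads may be shared. Its adjusted p was 9.55e-05 in DESeq2, 0.00583 with all genes of at least 1 count and 0.0145 without control replicate 3, and it ranged up to 0.44 over the alternatives. UBQLN4, which carries ubiquitinated proteins to the proteasome, had -0.78 (SE 0.14, adjusted p 0.111 in edgeR's test). For UBQLN4 the adjusted p was under 0.05 in the same 3 settings, from 0.000352 in DESeq2 to 0.0178 without control replicate 3, and it too ranged up to 0.44. DDI2, the protease that activates the NFE2L1 protein, had 37.6, 33.1 and 31.1 in the control and 48.4, 46.8 and 60.0 in the knockdown libraries. NGLY1, the deglycosylase that also acts on the NFE2L1 protein, had 39.6, 31.1 and 26.5 in the control and 19.7, 21.6 and 24.6 in the knockdown libraries. The groups did not overlap for either, with log2 fold changes of -0.61 (SE 0.16, adjusted p 0.126 in edgeR's test) for DDI2 and 0.56 (SE 0.19, adjusted p 0.177) for NGLY1. The adjusted p of DDI2 was 0.0269 in DESeq2 and between 0.0598 and 0.44 in the other alternatives. That of NGLY1 was 0.0452 without control replicate 3 and between 0.127 and 0.495 in the other alternatives.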

How the data were processed

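RNA-seq libraries of 3 control and 3 Smyca shRNA #1 samples were grouped by their titles. The libraries were rRNA-depleted, strand-specific and read from both ends over 150 bases. The authors mapped the reads to hg38 with TopHat2 2.0.12 and deposited raw HTSeq counts of 58302 Ensembl genes for every library. The annotation release, counting mode and strand setting are not given in the sources used here. The authors also deposited FPKM values. In 5 libraries FPKM followed the counts within 1% for 100% of genes, and in control replicate 2 for 2.08%, so the FPKM served only as a check and, there, to recover whole reads (16759253 over 23593 genes, with 100% of values under 50 reads within 0.05 of a whole number). The main test used only the counts, and 1 alternative used those recovered reads.

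Symbols came from GENCODE release 44 (57532 identifiers). The test was run on the counts in edgeR 4.0.16 under R 4.3.3 (TMM, filterByExpr, quasi-likelihood test, Benjamini-Hochberg adjustment over all genes tested), as control against knockdown. Ratio limits of 1.5 and 0.66 with an adjusted p under 0.05 follow the study. Alternatives were RLE size factors, total counts, at least 1 count in all, at least 10 counts in every library, DESeq2 1.42.0 (Wald test), a replicate block, each library left out, reads recovered from the FPKM of control replicate 2 and other thresholds. Alternatives chosen after seeing the data left out the 5 members with shared exons, or the 2 interacting-protein genes. The code was tested on simulated data. Members and lists were chosen with earlier results of these data known. Library values were given for PSMB5 to PSMB10, the 3 largest and 3 smallest fold changes, the largest of each role, called members, members below the filter, 6 listed genes outside the symbol rule (NFE2L1, POMP, ADRM1, SEM1, IRF1 and TAP1) and MIR23AHG, and for partner genes and 1 member chosen after their values were seen (PSMA7, UBB, DDI2 and NGLY1, with UBQLN4 by its fold change alone); values of 2 further listed genes are not reported here. Differences are in log2. Each library is 1 sample, so p-values set the group difference against the variation between libraries. In edgeR and DESeq2 that variation is estimated partly from all genes tested. Floors cover counting error only.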

Additional observations from a re-analysis of the deposited data

Results flagged for a closer look

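The FPKM column of control replicate 2, which the main comparison does not use, stands for other read numbers than its count column for 48 of the 48 members tested. As shares of their totals, the reads behind it differed from the counts by a log2 ratio between -0.50 and 1.71 over the members, with a median of 0.0037, and by more than 0.5 for 2 members, PSMA6 (1.71) and PSMC3IP (0.68). These reads lay closest to the counts of control replicate 3. Over the members, the median absolute log2 difference of these shares was 0.0593 to control 3, 0.178 to control 2 itself and 0.167 to 0.237 to the other 4 libraries. Over 13470 genes with at least 50 reads in the sum, it was 0.0931 to control 3, beside 0.33 between the counts of control 2 and control 3. The chi-square per gene against control 3 was 2.64, where 19.6 was the smallest between any 2 count columns. Which of the columns belongs to control replicate 2 was not tested. With the FPKM reads in place of its counts, 0 of 48 members and 10 of the 15190 genes tested were called.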

How the results depend on the processing

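Under the 13 alternative settings, 31 members stayed below 0 and 5 above 0. The median log2 fold change of the members, -0.19 in the main test, ranged from -0.12 to -0.23 over all of them. It was -0.12 with total counts and without knockdown replicate 2. Each move was smaller than 0.11, the pooled SD between replicates of the members' median per library. That SD is itself large beside the median of -0.19. The count of called members was 1 (PSME3) with all genes of at least 1 count, with DESeq2 and without control replicate 3, and 0 otherwise, also with an adjusted p under 0.10. All genes called numbered 916, 850 and 1628 there, against 4. The counts of control 3 differed from those of control 1 by a median absolute log2 difference of 0.395. That difference was 0.33 between controls 3 and 2, and 0.193 between controls 1 and 2. From knockdown 1, controls 2 and 3 each differed by 0.291 and control 1 by 0.371. The part of this in the number of genes called was not tested. Leaving out 1 library gave 0 to 1 called, 1 to 10 lower and 0 higher at an unadjusted p under 0.05 (4.75% to 13.9% and 6.02% to 15.7% of all genes), 12 to 26 apart with the control lower and 1 to 3 with the control higher (14.2% to 23.5% and 14.9% to 25.7% of all genes). Members lower at an unadjusted p were 2 with total counts (5.86% of all genes) and members higher were 1, and 1 also with the reads recovered from the FPKM of control replicate 2 (13.0% and 10.6% of all genes). Members apart with the control lower were 7 with total counts and 18 with those reads (8.46% and 13.7% of all genes), and apart with the control higher were 2 with total counts, 0 with all genes of at least 1 count, 2 with at least 10 counts in every library and 2 with those reads (16.1%, 7.74%, 12.6% and 14.2% of all genes). PSMB9 turned to -0.055 with those reads, and TAP1 to 0.053 with total counts and 0.0026 with at least 10 counts. With 1 library left out, PSMB7 ranged from -0.21 to 0.0015, PSMB9 from -0.013 to 0.29, IRF1 from -0.086 to 0.21 and TAP1 from -0.12 to 0.14. Of 325 values of named genes, 301 kept sign and side of the threshold, 15 passed it and 9 changed sign. With the replicate block, the members' median was -0.18 and 0 genes were called. Libraries of the same number correlated by 0.0607, 0.0842 and -0.0139 in their deviations, so the numbers were not taken as pairs. Leaving out the 5 members with shared exons or the 2 interacting-protein genes kept each count within 1.5 times. Depth limits PSMA2, PSMA6 and PSMD9, with at most 55 counts.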
